A study of Mus musculus with 16 samples.

Results

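The cytosolic ribosomal protein genes are the genes whose products, with the ribosomal RNAs, build the large and the small subunit of the ribosome. They were taken from the deposited table by symbol: every row with Rpl or Rps followed by a digit, plus Rpsa, Rplp0, Rplp1 and Rplp2, without pseudogene symbols and without the S6 kinase genes. This gave 89 of 19540 rows. Of these, 77 encode core ribosomal proteins, 46 of the large subunit (3 of them stalk proteins) and 31 of the small subunit. Another 11 are paralogs or retrocopies of core genes, and 1, Rps19bp1, encodes a protein that binds Rps19 and is not part of the ribosome. The pseudogene symbols left out numbered 7 and the S6 kinase genes 10.

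RNA was measured in T cells sorted from visceral adipose tissue of mice aged 12 weeks on the C57BL/6JRcc strain. Regulatory T cells (Treg, which express Foxp3 and hold immune responses in check) and their conventional counterparts (Tconv) came from KO mice, in which a floxed Hpgd allele is removed by Cre recombinase from the Foxp3-YFP-Cre allele, and from wild-type (WT) mice. Hpgd encodes the enzyme that inactivates prostaglandin E2. There were 4 Treg KO, 3 Treg WT, 5 Tconv KO and 4 Tconv WT libraries. In KO mice Cre is driven by Foxp3, so the Tconv KO cells shared an animal with deleted Treg and were not themselves the targeted cells. The line label was the same for all 16 libraries, so genotype rests on the sample titles. Which animal a library came from is not labelled, so a p-value here reflects how far these libraries spread, which may be technical.

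Ribosomal protein mRNAs are among the most abundant transcripts of a lymphocyte. Many begin with a cytosine followed by a run of pyrimidines at the cap, the 5′ terminal oligopyrimidine (TOP) motif, through which mTORC1, a growth-sensing kinase complex, and the RNA-binding protein Larp1 control their translation. A subunit is stable only when its proteins are made together, and T cells raise ribosome production when they are activated. Some core proteins have paralogs encoded elsewhere in the genome that can take their place in the ribosome.

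Libraries held 3.39 to 9.26 M reads, except 56.7 M in 1 Tconv KO library. Foxp3 stood at 279 to 546 normalised reads in Treg KO and 292 to 616 in Treg WT, against at most 4.99 in Tconv KO and 39.3 in Tconv WT. Hpgd stood at 3.41, 2.54, 2.42 and 1 in Treg KO libraries, against 73.1, 56.0 and 4.31 in Treg WT libraries, so the library labelled Treg WT 3 was close to the KO libraries. Of the T cell markers, 4 of 5 listed were in the table and all had reads in every group. Neutrophil markers summed to 14868 in 1 library, Tconv WT 1, and 6 of 7 red cell and platelet markers to 160120 in another, Tconv WT 3; elsewhere these lists summed to at most 85.8 and 1515. Results were therefore also computed without these libraries and the deepest one, Tconv KO 3. In bulk RNA, fewer cells of a type and less RNA per cell cannot be told apart.

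The sequences show a pyrimidine run at the annotated start in some of the genes on which the results turn, and none there in others. From RefSeq windows on GRCm38.p6, 40 bases before and 15 after an annotated start are given on the gene's strand. Capitals mark a C followed by at least 4 more pyrimidines that begins within 5 bases of the start. Where a gene had several windows, a window with such a run was shown in preference to one without. Rps27l and Rps21 had 2 windows each. A run farther away is left in small letters, as in the Rpl5 window. In GENCODE M21 Rpl5 starts at 107900502, upstream of the start used here. A window without capitals therefore does not show that a gene lacks the TOP motif. Rps27 is the gene with the highest level per length, Rps27l its paralog, Rpl35 and Rps21 are 2 of the genes closest to the common pattern, and Rpl10 and Rpl5 depart from it in different ways.
Rps27: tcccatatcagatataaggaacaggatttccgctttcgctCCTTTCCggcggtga
Rps27l: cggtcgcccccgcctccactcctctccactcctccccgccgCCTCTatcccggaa
Rpl35: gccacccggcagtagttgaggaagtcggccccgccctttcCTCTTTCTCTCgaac
Rps21: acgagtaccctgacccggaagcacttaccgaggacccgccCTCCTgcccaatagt
Rpl10: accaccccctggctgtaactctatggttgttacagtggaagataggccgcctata
Rpl5: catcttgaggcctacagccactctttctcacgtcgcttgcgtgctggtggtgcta
They lie at chr3:90213634-90213688 on the minus strand (Rps27), chr9:66946046-66946100 on the plus strand (Rps27l), chr2:39005117-39005171 on the minus strand (Rpl35), chr2:180257339-180257393 on the plus strand (Rps21), chrX:74270776-74270830 on the plus strand (Rpl10) and chr5:107900488-107900542 on the plus strand (Rpl5).

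Of the 77 core genes, 57 matched the RefSeq table. The pyrimidine run was present in 27 of the 57 (47.4%), against 21.2% of all 27025 genes in the table. It was present in 16 of 34 large subunit genes and 11 of 23 small subunit genes. The letters CCGGAAG, the core of ETS factor sites, were sought on either strand in windows reaching 250 bases before and 50 after the start. They stood in 24 of 57 core genes (42.1%), against 9.93% of all genes. For the run and for these letters, a gene was counted when any of its windows held a match. The YY1 core AAGATGG stood in 15.8% of core genes and 7.28% of all genes. TATAAA stood in 10.5% of core genes and 15.7% of all genes, and the E-box CACGTG in 10.5% and 8.09%. A window could hold several of these, and a match is a match of letters only.

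All 77 core genes had reads in every library. Their levels per kilobase of transcript spread widely, from 13677 for Rpl19, at rank 10 of 77, to 1087 for Rpl27a, at rank 68. Together with their paralogs the core genes took 4.34% to 7.87% of the reads of a library. The mean level per kilobase of transcript over the 16 libraries is plotted for each core gene. Rps27, a zinc-finger protein of the small subunit, had the highest value of all genes in the table, 81633 normalised reads per kilobase. Other core genes at the high end were Rpl37a at 19549, Rps29 at 18429, Rps18 at 17624 and Rps14 at 17491 per kilobase. Rps27 also ranked 1 among core genes when the coding length was used in place of the transcript length.

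**Figure D1:**
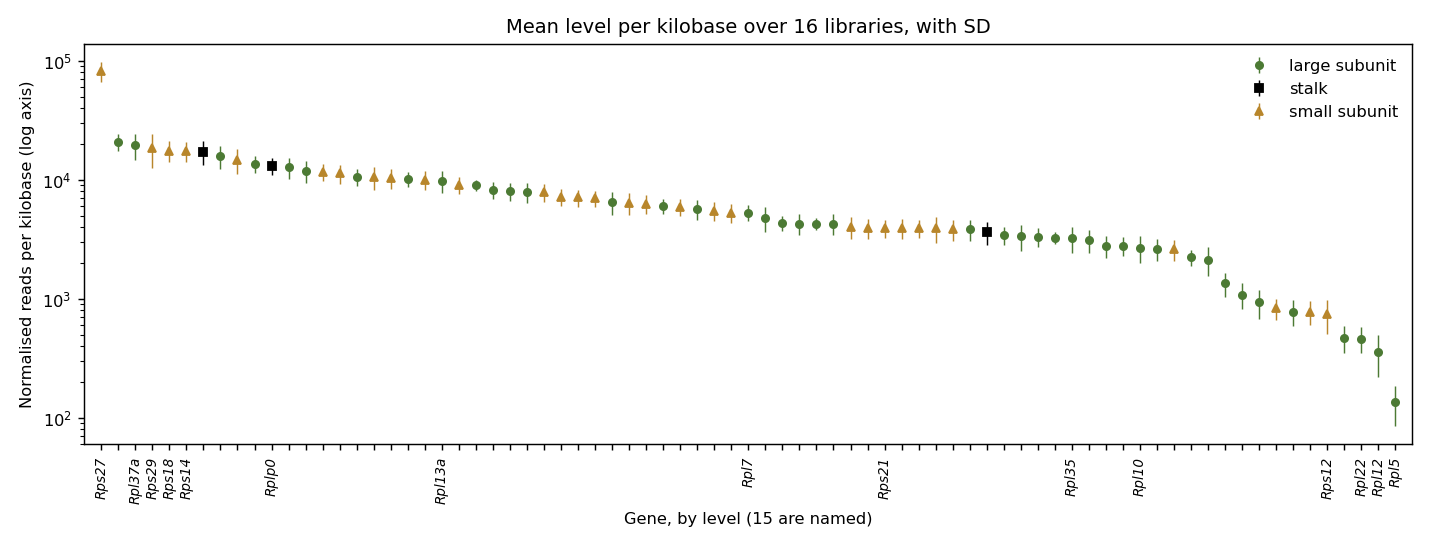
Mean normalised reads per kilobase of transcript (log axis) of each of the 77 core ribosomal protein genes, with the SD over 16 libraries, genes in order of level and 15 of them named; circles are large subunit, squares stalk and triangles small subunit genes. Rps27 stands alone at the top with 81633 per kilobase, and Rpl5 is last with 135.

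Rpl5 and Rpl12 lay at the low end of the core genes. Rpl5, which carries the 5S ribosomal RNA together with Rpl11 and binds the p53 regulator Mdm2, was last of the 77 on either length, at 135 normalised reads per kilobase of transcript and 310 per kilobase of coding sequence. Rpl12, a protein at the base of the stalk, was next to last on both, at 359 per kilobase of transcript. Outside the core genes, those at the low end were Rpl7l1 at 137, Rps19bp1 at 170, Rps4l at 17.8 and Rpl10l at 5.08 per kilobase of transcript. Exons of Rpl5 overlap those of Fam69a and exons of Rpl12 those of Lrsam1, both coding genes, and reads of overlapping genes cannot be told apart without strand. Such an overlap with any annotated gene concerned 39 of the 89 genes, with a coding gene 16. Whether reads of Rpl5 or Rpl12 were assigned to similar copies elsewhere in the genome was not tested.

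Of the 89 genes, 86 reached 10 normalised reads in at least 3 libraries and were tested. The 3 that did not were paralogs or a retrocopy. Rpl3l, the form of Rpl3 found in heart and skeletal muscle, had reads in 1 library only, at 22.4 in Treg KO 4. Rpl39l, the testis form of Rpl39, had reads in 2 libraries, at 24.4 in Treg KO 4 and 7.38 in Tconv KO 4. Rpl32l had reads in 15 libraries at no more than 9.78.

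The core genes moved together from library to library. The log2 level of a core gene correlated with the median of the other core genes at a median r of 0.839 over 16 libraries, and 73 of 77 had an r over 0.5. Among the 1389 other genes with a mean of at least 1000 normalised reads, the median r with the same core median was 0.03, and 9.07% were over 0.5. All genes of a library share its depth and normalisation, and no test was made of these correlations. Without the 2 libraries farthest from the middle, Treg KO 2 and Tconv KO 2, the median r of the core genes was 0.698 and 66 were over 0.5.

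The genes closest to the common pattern were Rpl35 (r = 0.955), Rpl32 (r = 0.952) and Rps21 (r = 0.948), all of them structural proteins of the ribosome. Rpl35 had 3927, 1640, 2911 and 3370 normalised reads in Treg KO, 2541, 2347 and 3179 in Treg WT, 3267, 1811, 3326, 3921 and 3038 in Tconv KO and 2885, 3043, 4514 and 3065 in Tconv WT. Its lowest libraries were Treg KO 2 and Tconv KO 2 and its highest Tconv WT 3, and the 4 groups overlapped. The genes least like the pattern were Rps4l (r = -0.50), Rps19bp1 (r = 0.00905), Rpl10l (r = 0.00912), Rps12 (r = 0.03) and Rpl5 (r = 0.08). Their means over 16 libraries were 17.7, 143, 6.19, 436 and 277 normalised reads, against 3049, 8144 and 1557 for Rpl35, Rpl32 and Rps21. The part of low level in this was not tested. Rps12, a small subunit protein that senses imbalance of ribosomal proteins in Drosophila, had 446, 428, 174 and 356 normalised reads in Treg KO, 237, 593 and 432 in Treg WT, 705, 371, 444, 417 and 465 in Tconv KO and 430, 478, 677 and 315 in Tconv WT. Its libraries at the extremes, Tconv KO 1 and Treg KO 3, were not those of Rpl35.

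A library can be described by the median deviation of its core genes from their own means. On the log2 scale this was 0.27, -0.60, 0.08 and 0.21 in Treg KO 1 to 4, and -0.12, -0.22 and -0.04 in the Treg WT libraries. It was -0.02, -0.32, 0.08, 0.30 and 0.04 in Tconv KO and -0.03, -0.01, 0.33 and 0.08 in Tconv WT. Treg KO 2 stood apart, with 75 of 77 core genes below their means and 4.34% of its reads in ribosomal protein genes, against 6.47%, 6.18% and 6.42% in the other Treg KO libraries. It held 4.77 M reads, the fewest of the Treg libraries, and reads in 16041 genes, the most of all libraries. Stromal and endothelial markers, all 5 of the list with reads in Treg KO, summed to 156 to 453 in Treg KO libraries, highest in Treg KO 2, against 157 to 296 in Treg WT libraries. The part of depth and of these markers in the low values of Treg KO 2 was not tested.

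**Figure D2:**
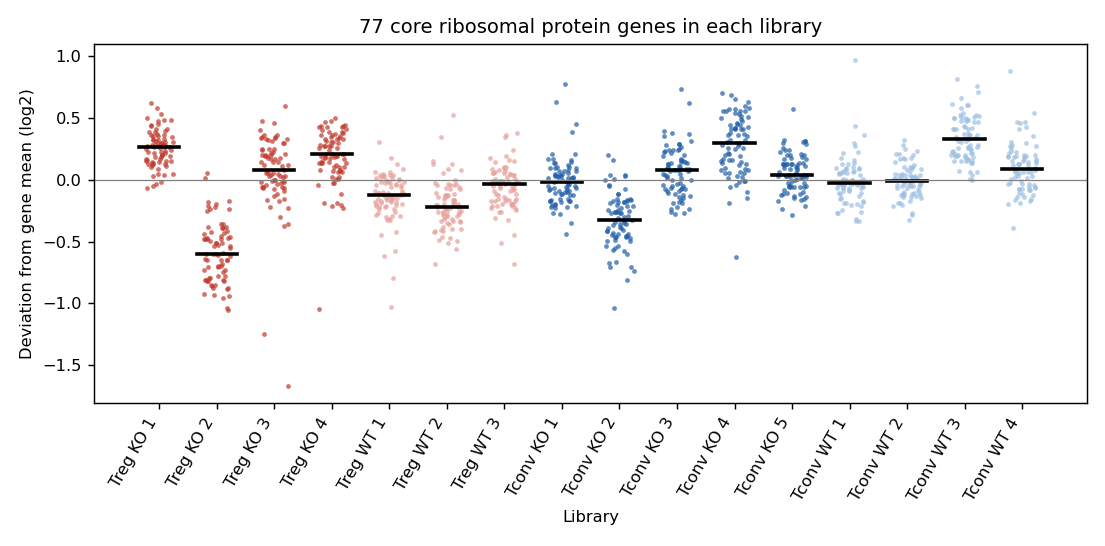
Deviation of each of the 77 core genes from its own mean over 16 libraries (log2, y axis) in each library (x axis), with black bars at the medians. The median of Treg KO 2 is -0.60, that of Tconv KO 2 is -0.32, and the other 14 lie between -0.22 and 0.33.

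The residual SD within groups describes how steady a gene is. Over the core genes its median was 0.299 on the log2 scale, against 0.297 over all genes with a mean of at least 1000 normalised reads, 70 core genes included. It was smallest in Rpl9, Rpl7a, Rplp0, Rpl8 and Rpl13, down to 0.160, all large subunit or stalk genes. It was largest in Rps4l at 2.19, Rpl10l at 1.53, Rps19bp1 at 0.695, Rpl5 at 0.572 and Rps27rt at 0.523. The summed level of large subunit genes over that of small subunit genes was 1.18 ± 0.03 in Treg KO and 1.15 ± 0.02 in Treg WT (SD, n = 4 and 3), against 1.11 ± 0.06 in Tconv KO and 1.11 ± 0.03 in Tconv WT (n = 5 and 4).

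The effect of Hpgd deletion inside Treg was addressed by Treg KO against Treg WT. No ribosomal protein gene passed at an adjusted p under 0.05 (limma, Benjamini-Hochberg over all 14319 genes tested), where 0.021% of all genes passed. At an unadjusted p under 0.05 there were 2, where 6.22% of all genes reached it, and the precision-weighted voom model on reads also passed none. The difference was positive in 66 and negative in 20 of the 86 genes, with a median of 0.11 against 0.08 over all genes on the log2 scale. Under quantile scaling the split was 50 to 36. No gene had groups without overlap, against 3.35% of all genes higher and 2.66% lower.

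Rplp0 had the smallest p-value. This protein, the base of the stalk that recruits translation factors, had 22172, 15625, 20972 and 21664 normalised reads in Treg KO, against 15833, 13202 and 15438 in Treg WT. Only Treg KO 2 fell within the Treg WT range, and the log2 difference was 0.43 ± 0.16 (SE, limma adjusted p = 0.741). Rps3, at the mRNA entry channel, had a log2 difference of 0.34 (limma adjusted p = 0.821). On the negative side the smallest p-values belonged to Rps27rt, Rpl22l1 and Rps24, at -0.45, -0.23 and -0.19 with limma adjusted p from 0.877 to 0.946.

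Leaving out Treg KO 2, in which 75 of 77 core genes lay below their means, moved these values together. The median difference over the 86 genes was then 0.33 against 0.07 over all genes, and 82 of 86 were positive. None passed after adjustment over all genes (limma). Rps24 then turned positive, to 0.08. Leaving out other Treg KO libraries moved the median the other way. It was 0.03 against 0.08 over all genes without Treg KO 1, with 47 genes positive and 39 negative, and 0.06 against 0.07 without Treg KO 4. In both cases it lay below the median of all genes. Treg WT 3 was the library with Hpgd close to the KO libraries. Without Treg WT 3 the median was 0.15 against 0.06 over all genes, with 71 genes positive and 15 negative.

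The Tconv that shared mice with deleted Treg were compared as Tconv KO against Tconv WT. No ribosomal protein gene passed, as no gene of the 14319 did (0%, limma), and none had an unadjusted p under 0.05, where 5.45% of all genes did. Groups overlapped for each of the 86, against 0.866% of all genes higher and 0.803% lower without overlap. The voom model also passed none. The difference was negative in 68 and positive in 18 genes, with a median of -0.09 against 0.02 over all genes; under quantile scaling the split was 53 negative to 33 positive. The smallest p-values were those of Rpl23, Rpl13 and Rpl7 below 0, with log2 differences of -0.33, -0.21 and -0.22 and limma adjusted p from 0.932 to 0.953. Above 0 they were Rpl22l1, Rpl10l and Rpl18, of which Rpl22l1 was at 0.25 (limma adjusted p = 0.967). The median was -0.01 without Tconv KO 2 and -0.16 without Tconv KO 4. Without Tconv WT 3 it was -0.00128 against -0.00452 over all genes, with 41 genes positive and 45 negative.

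The deletion effect in Treg minus that in Tconv tests whether both cell types responded differently. No ribosomal protein gene passed, nor any other gene (0%, limma), and the voom model also passed none. At an unadjusted p under 0.05 there were 3, among them Rpl10 and Rplp0 with log2 differences of 0.57 and 0.48 and a limma adjusted p of 0.928 each; 5.22% of all genes reached that level. The value was positive in 75 of 86 genes, with a median of 0.22 against 0.06 over all genes, and the median was 0.14 without Treg KO 1, 0.14 without Tconv KO 2, 0.42 without Treg KO 2 and 0.07 under quantile scaling.

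**Figure D3:**
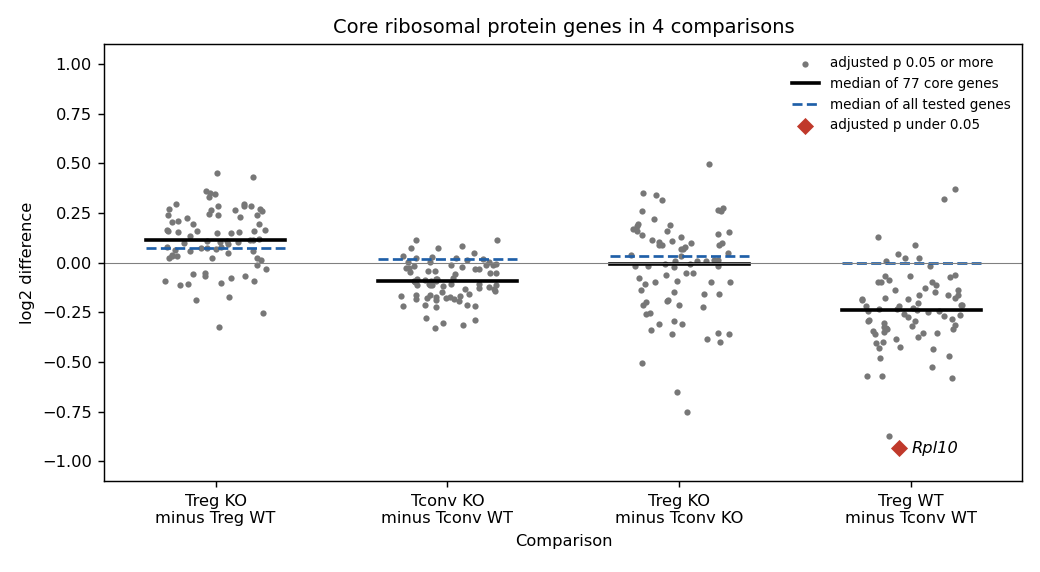
log2 difference (y axis) of each of the 77 core genes in 4 comparisons (x axis), with black lines at the median of the core genes and dashed lines at the median of all 14319 tested genes. Rpl10, in Treg WT minus Tconv WT, is the only gene with an adjusted p under 0.05; in that comparison 69 of 77 core genes lie below 0.

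The 2 cell types were compared within each genotype. In WT mice the ribosomal protein genes were mostly lower in Treg: 76 of 86 had a negative difference, with a median of -0.24 against -0.00374 over all genes. Groups did not overlap for 25 genes lower and 2 higher in Treg WT, against 6.1% of all genes lower and 5.87% higher. Large subunit genes had a median of -0.25 and small subunit genes of -0.23. Only Rpl10 passed, lower in Treg WT (limma, adjusted p under 0.05), where 1.98% of all genes passed lower, 2.2% higher and 4.18% in either direction; 8 of the 86 had an unadjusted p under 0.05, against 16.3% of all genes. Without Tconv KO 3, Tconv WT 1 and Tconv WT 3, Rpl10 alone still passed in WT mice, 71 of 85 genes tested were negative, and the median was -0.18 against -0.05 over all genes. Leaving out only Tconv WT 3, the library with the high red cell markers, gave a median of -0.17 against -0.03 over all genes, with 72 of 86 negative. In KO mice 42 genes were positive and 44 negative, with a median of -0.01 against 0.04 over all genes. None passed (limma), where 6.81% of all genes did, 4.16% higher and 2.65% lower. Groups overlapped for each of the 86 in KO mice, against 6% of all genes higher and 4.66% lower without overlap, and 7 had an unadjusted p under 0.05, against 18.7% of all genes. Stromal and endothelial markers also differed between the cell types: the 5 of the list summed to 156 to 453 normalised reads in Treg KO, against 448 to 1155 in Tconv KO, and to 157 to 296 in Treg WT, against 310 to 664 in Tconv WT. These sums did not overlap in WT mice, and their part in the results on Treg against Tconv was not tested.

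Scaling moved the KO comparison. Dividing each library by its summed value put the median of all genes at -0.14 for Treg KO against Tconv KO and at -0.10 for Treg WT against Tconv WT. Relative to that shift the ribosomal protein genes lay at -0.06 in KO and -0.25 in WT mice. With that scaling, and with voom, the same 3 genes were called lower in Treg KO, Rpl10 and Rpl13a among them. Quantile scaling called 9 genes lower in Treg KO, with 81 of 86 negative. The median was -0.28 against -0.04 over all genes, so that the ribosomal protein genes lay at -0.23 relative to all genes. Without Treg KO 2 the calls went the other way: Rpl19, Rpl37a and Rps2 were higher in Treg KO. The median was then 0.20 against 0.02 over all genes, whereas it was -0.10 against 0.03 without Treg KO 4. The share of all genes called in these fits is not given here. The genes in these counts were named after their values were seen.

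Rpl10, the late-joining large subunit protein that lines the tRNA path to the peptidyl transferase centre, lies on chromosome X at 74270812 to 74273135 (GRCm38, GENCODE M21). It had 1634, 1393 and 1565 normalised reads in Treg WT, against 2739, 2658, 3216 and 3082 in Tconv WT. The highest Treg WT library was far under the lowest Tconv WT library, and the log2 difference was -0.93 ± 0.19 (SE, limma adjusted p = 0.00587). Rpl10 passed in each of 29 fits, with adjusted p from 0.000906 to 0.0396 (limma). In KO mice it had 2478, 1468, 1811 and 2241 in Treg, against 2582, 2059, 2929, 2567 and 2526 in Tconv. Treg KO 1 and Treg KO 4 lay within the Tconv KO range, and the log2 difference of -0.36 ± 0.16 did not pass (SE, limma adjusted p = 0.238).

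Set against the median of the other core genes in the same library, Rpl10 was low in Treg of both genotypes. The log2 distance was -1.15 ± 0.22 in Treg KO and -1.42 ± 0.06 in Treg WT, against -0.81 ± 0.10 in Tconv KO and -0.67 ± 0.09 in Tconv WT (SD, n = 4, 3, 5 and 4). The 16 libraries split by cell type on this measure, except that Treg KO 2 at -0.94 lay just above Tconv KO 4 at -0.96. This distance was computed after the level was seen and was not tested. Exons of Rpl10 overlap the small nucleolar RNA Snora70.

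Rpl13a, which in human cells also acts as a free protein in an interferon-induced translation block, was the next gene. It had 8069, 7179 and 9027 normalised reads in Treg WT, against 10504, 12181, 14029 and 11412 in Tconv WT. These groups did not overlap, but the log2 difference of -0.57 ± 0.19 did not pass (SE, limma adjusted p = 0.1003). In KO mice it had 10261, 5981, 9611 and 9755 in Treg, against 10524, 10250, 10688, 14728 and 10279 in Tconv. Treg KO 1 lay just inside the Tconv range, and the log2 difference was -0.36 ± 0.16 (SE, limma adjusted p = 0.237).

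**Figure D4:**
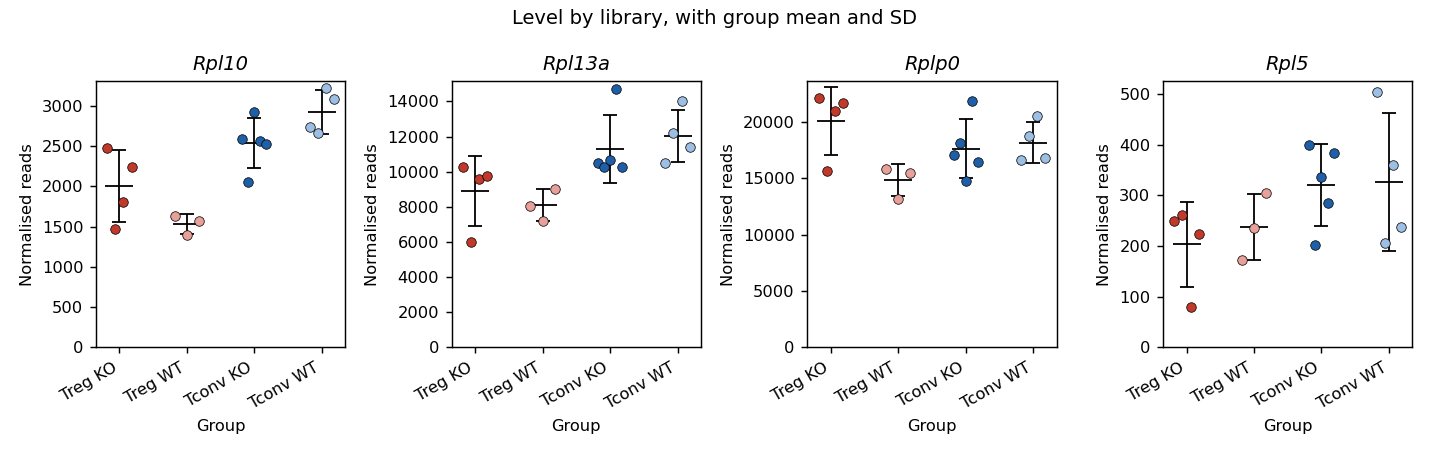
Normalised reads (y axis, from 0) of Rpl10, Rpl13a, Rplp0 and Rpl5 in each library by group, with group means and SD. Rpl10 lies at 1393 to 1634 in Treg WT and at 2658 to 3216 in Tconv WT, while Rplp0 is at 15625 to 22172 in Treg KO and 13202 to 15833 in Treg WT.

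On the positive side, Rpl37a had the smallest p-value in KO mice. It had 16237, 7580, 14567 and 14643 normalised reads in Treg KO, against 8322, 6333, 10716, 11007 and 9657 in Tconv KO. All Treg KO libraries but Treg KO 2 lay above the Tconv KO range, and the log2 difference was 0.50 ± 0.20 (SE, limma adjusted p = 0.167). Without Treg KO 2 it was 0.74 with an adjusted p of 0.00726 (limma), and without Treg KO 1 it was 0.38. The difference was smaller with other scalings, at 0.31 with equal summed values, 0.28 with voom and 0.11 under quantile scaling (limma adjusted p = 0.352, 0.358 and 0.784). Rps2, which helps decoding accuracy in the small subunit, was at 0.34 (limma adjusted p = 0.227), and at -0.03 under quantile scaling. In WT mice Rpl39, a small protein of the exit tunnel, was at 0.37 (limma adjusted p = 0.600).

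The paralogs were set against their parent genes as a log2 ratio in each library, and Treg against Tconv was tested by an exact 2-sided permutation of cell type within genotype. Of 8 pairs listed, 6 could be tested. Rps27l, a paralog of Rps27 that p53 induces in human cells, was the pair with the larger shift. Its level was 912, 471, 671 and 881 normalised reads in Treg KO and 637, 768 and 1091 in Treg WT, against 371, 390, 494, 714 and 475 in Tconv KO and 486, 490, 489 and 565 in Tconv WT. Only Treg KO 2 in Treg and Tconv KO 4 in Tconv brought the levels to overlap.

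As a ratio to Rps27, Rps27l separated the cell types in full. It stood at 2.97%, 3.00%, 2.36% and 2.80% of Rps27 in Treg KO and 2.71%, 2.84% and 4.31% in Treg WT, against 1.20%, 2.04%, 1.62%, 1.94% and 1.5% in Tconv KO and 1.76%, 1.77%, 1.36% and 1.96% in Tconv WT. All 7 Treg libraries were above all 9 Tconv libraries. The log2 ratio was 0.84 higher in Treg, 0.76 in KO and 0.92 in WT mice (exact permutation p = 0.000227, the smallest that 4410 permutations allow; 0.00136 after Benjamini-Hochberg adjustment over 6 pairs). Rps27rt is a retrocopy nearly identical to Rps27, so reads may be split between these 2; with both summed as the denominator the log2 difference was 0.86, and with Rps27rt alone 1.12. Across all genes the level of Rps27l itself did not pass in either genotype, at 0.58 ± 0.25 in KO and 0.68 ± 0.28 in WT mice (SE, limma adjusted p = 0.206 and 0.220).

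Set against the median of the core genes, Rps27l was at -2.60 ± 0.18 in Treg KO and -2.28 ± 0.40 in Treg WT, against -3.20 ± 0.28 in Tconv KO and -3.18 ± 0.20 in Tconv WT on the log2 scale (SD, n = 4, 3, 5 and 4). Rps27 on the same measure was at 2.60 ± 0.05 in Treg KO and 2.69 ± 0.15 in Treg WT, against 2.75 ± 0.16 in Tconv KO and 2.70 ± 0.05 in Tconv WT.

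Rpl7l1, a paralog of Rpl7 that takes part in ribosome assembly, moved the other way. It had 298, 255, 300 and 429 normalised reads in Treg KO and 233, 257 and 230 in Treg WT, against 427, 319, 323, 443 and 510 in Tconv KO and 400, 399, 511 and 395 in Tconv WT. The WT groups did not overlap, whereas Treg KO 4 lay within the Tconv KO range. As a ratio to Rpl7 it was 5.33% ± 0.77 in Treg KO and 4.28% ± 0.51 in Treg WT, against 6.71% ± 0.90 in Tconv KO and 6.11% ± 0.41 in Tconv WT (SD, n = 4, 3, 5 and 4). The log2 ratio was -0.42 in Treg against Tconv (exact permutation p = 0.00113, adjusted 0.0034 over 6 pairs), with some overlap of the cell types. The level of Rpl7l1 itself did not pass, at -0.82 in WT mice (limma adjusted p = 0.106).

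The other 4 pairs did not pass. Rpl22l1, which acts against Rpl22 in mouse T cell development, was about as abundant as its parent: 95.3% ± 4.4 in Treg KO and 105% ± 22 in Treg WT, against 128% ± 14 in Tconv KO and 88.9% ± 8.8 in Tconv WT (SD, n = 4, 3, 5 and 4). Its log2 ratio differed by -0.42 in KO and 0.22 in WT mice, and by -0.10 over both (exact permutation adjusted p = 0.776); the difference between genotypes was not tested. Rpl36al stood at 74.8% of Rpl36a in Treg KO and 94.1% in Treg WT, against 83.3% in Tconv KO and 75.1% in Tconv WT, and its difference of 0.07 did not pass (exact permutation adjusted p = 0.776). Rpl10l, the testis form of Rpl10, had reads in 8 of 16 libraries and at most 43.3 normalised reads. Rps4l had reads in 7 libraries and at most 123. Both were too sparse for a stable ratio, and leaving out Treg KO 3 turned their sign.

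**Figure D5:**
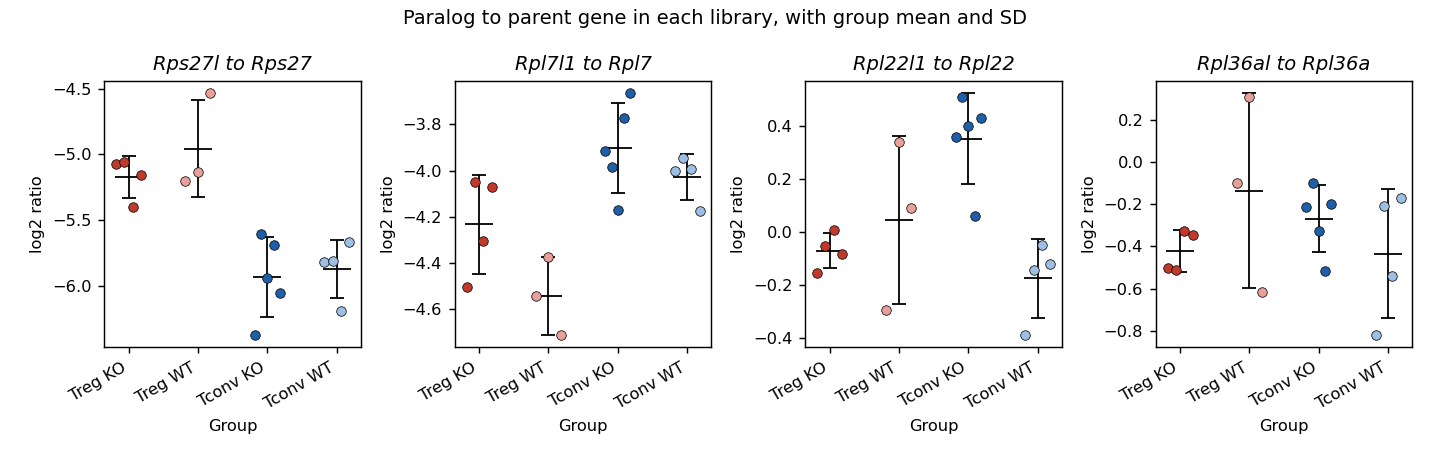
log2 ratio of a paralog to its parent gene (y axis) in each library by group, with group means and SD, for Rps27l, Rpl7l1, Rpl22l1 and Rpl36al. Rps27l to Rps27 lies at -5.40 or above in all Treg and at -5.61 or below in all Tconv libraries; the other ratios overlap between cell types.

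Other genes of the translation machinery were counted in the same comparisons, where 6.81% of all genes passed in Treg KO against Tconv KO and 4.18% in Treg WT against Tconv WT. Among ribosomal proteins whose symbols lie outside the rule, Fau, a fusion that yields Rps30, and Rack1, a scaffold of the small subunit, did not pass in any comparison (limma; neither had an unadjusted p under 0.05). None of 11 elongation factor genes passed either (limma; none unadjusted). Of 38 initiation factor genes, 1 passed: Eif4a2, an RNA helicase of the cap complex, was lower in Treg KO, at 2752, 2087, 2013 and 1935 normalised reads, against 4328, 3054, 4070, 3825 and 4941 in Tconv KO. The groups did not overlap, and the log2 difference was -0.88 ± 0.17 (SE, limma adjusted p = 0.00232). In WT mice Eif4a2 was at -0.62 and did not pass (limma adjusted p = 0.0807).

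Of 16 mTORC1 and TOP regulator genes tested, 1 passed. Eif4ebp1, the translation inhibitor that mTORC1 phosphorylates, was higher in Treg KO, at 461, 341, 400 and 360 normalised reads, against 266, 274, 164, 134 and 130 in Tconv KO. Every Treg KO library was above every Tconv KO library (log2 difference 1.08 ± 0.32 SE, limma adjusted p = 0.0476). In WT mice Eif4ebp1 was at 0.75 and did not pass (limma adjusted p = 0.311). Myc, the transcription factor that drives ribosome production, was at 1.16 in KO and 1.17 in WT mice and did not pass (limma adjusted p = 0.0513 and 0.118). Of 55 ribosome biogenesis genes, 1 passed: Rrp9, a protein of the U3 small nucleolar particle, was lower in Treg WT, at 195, 116 and 131 normalised reads, against 486, 314, 371 and 455 in Tconv WT (log2 difference -1.47 ± 0.32 SE, limma adjusted p = 0.00993). These WT groups did not overlap. In KO mice Rrp9 was at -0.73 and did not pass (limma adjusted p = 0.140).

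The mitochondrial ribosome is built from other genes. Of 78 tested, 2 were lower in Treg KO than in Tconv KO, Mrpl58 at -1.27 and Mrpl18 at -1.25 (limma adjusted p = 0.00551 and 0.00714), and 1 was lower in Treg WT than in Tconv WT, Mrpl49 at -1.56 (limma adjusted p = 0.0254). In the other genotype these genes were also lower in Treg but did not pass. Mrpl58 was at -0.88 and Mrpl18 at -1.04 in WT mice (limma adjusted p = 0.131 and 0.0721), and Mrpl49 at -0.49 in KO mice (limma adjusted p = 0.501). The median of the 78 was -0.04 in KO and -0.24 in WT mice, beside -0.01 and -0.24 for the 86 cytosolic genes. No gene of these lists passed in Treg KO against Treg WT, in Tconv KO against Tconv WT or in the difference between both (limma); of the mitochondrial genes, 7, 1 and 1 had an unadjusted p under 0.05 there, of the initiation factors 3, 1 and 1, and of the biogenesis genes 2, 4 and 2, where 6.22%, 5.45% and 5.22% of all genes did.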

How the data were processed

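Per the labels' protocols, cells were sorted after digestion of the fat, libraries were made from 10 ng of RNA with SMART-seq2, which does not mark strand, and sequenced on a NextSeq. Tools listed in the submitters' processing notes, without roles, were kallisto 0.44, DESeq2, R 3.3.1, Partek 6.6 and CASAVA 1.8, with build mm10. The deposited signal is, as its values show, a count divided by a size factor, plus 1, so 1 stands for no reads; recovered counts below 1000 were all whole numbers, with a tolerance of 0.1. A value of 3 reads was 1.38 to 7.09, and such floors cover counting error only. "Normalised reads" are these deposited values.

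Values were taken as log2(value + 1), so differences understate the change of low genes. Genes whose value reached 10 in at least 3 libraries, 14319 in all, were fitted with limma 3.58.1 in R 4.3.3 (mean-variance trend, all 16 libraries, 5 comparisons, 2-sided, Benjamini-Hochberg over all genes); the fit was tested on simulated data. Because of the added 1, the alternative on reads was voom. Positions and principal transcripts are from GENCODE M21, in which all 89 genes were found, and promoter windows from RefSeq (GRCm38.p6). Levels per kilobase depend on the transcript chosen.

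The members, lists and tests were chosen with earlier results of these data known. Genes were named by rule: those that passed or had the smallest p in a comparison, the extremes in level per kilobase, residual SD and likeness to the core median, and all paralogs with their parents. Some genes chosen by this rule are not reported here; totals still include them. Alternatives were pseudocounts of 0 and 10, filters of none and 50, 2 scalings, other variance settings, a replicate block, voom and leaving out libraries.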

Additional observations from a re-analysis of the deposited data

Results flagged for a closer look

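Of 132 groups of 4 or 5 libraries, 25 had a lowest or highest library far from the others (Dixon's gap test at 95%). Chance flags about 1 in 20 groups, and the genes are not independent of each other.

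Treg KO 2 was far below the other Treg KO libraries in the share of reads in ribosomal protein genes (4.34%) and in Rps24 (3124 normalised reads), Rpl13a (5981), Rpl9 (5047), Rpl7a (2982) and Rps4x (5961). Tconv KO 4 was far above the other Tconv KO libraries in Rps3 (15400.0 normalised reads), Rps2 (12840.1) and Rpl13a (14728). Tconv WT 3 was far above the other Tconv WT libraries in Rps2 (11025 normalised reads), Rps27 (35842), Rpl7l1 (511) and Rpl35 (4514).

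Single libraries also stood far above their groups in Rps12 (705 normalised reads in Tconv KO 1) and Rps27l (565 in Tconv WT 4). Sparse paralogs had reads mainly in 1 library of a group. For Rpl10l these were 20.8 normalised reads in Treg KO 3, 43.3 in Tconv KO 3 and 12.4 in Tconv WT 1. For Rps4l they were 123 in Tconv KO 2 and 25.8 in Tconv WT 1. For Rpl39l they were 24.4 in Treg KO 4 and 7.38 in Tconv KO 4, and for Rpl3l 22.4 in Treg KO 4.

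The 7 pseudogene symbols outside the gene set also had values above those of a gene with no reads. The highest normalised reads of a library were 1198 for Rpl17.ps8, 847 for Rpl14.ps1, 108 for Rpl17.ps10, 69.2 for Rpl34.ps1, 46.3 for Rps19.ps3, 30.9 for Rps15a.ps5 and 22.5 for Rpl13.ps6.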

How the results depend on the processing

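No ribosomal protein gene was called in either deletion comparison, or in their difference, under any alternative run. In Treg WT against Tconv WT, 1 gene was called; quantile scaling called 4, equal summed values 3, voom 2, and leaving out 1 library 1 to 2. In Treg KO against Tconv KO none was called; quantile scaling called 9, equal summed values 3 and voom 3, all lower in Treg KO, while leaving out 1 library called 0 to 3, the 3 being higher without Treg KO 2. The median there was -0.28 under quantile scaling, against -0.04 over all genes, and -0.10 to 0.20 with 1 library left out. The share of all genes called under these alternatives is not given here. Leaving out 1 library moved the median from 0.03 to 0.33 in Treg KO against Treg WT, from -0.16 to -0.00128 in Tconv KO against Tconv WT and from -0.28 to -0.17 in Treg WT against Tconv WT. The cause was not tested. The Rps27l ratio lay between 0.74 and 0.90 with 1 library left out, and the Rpl7l1 ratio between -0.46 and -0.38. With 1 library left out, Rpl10l to Rpl10 reached -0.0682 to 0.74, Rps4l to Rps4x -0.15 to 0.94 and Rpl36al to Rpl36a -0.0368 to 0.19. Without Tconv KO 3, Tconv WT 1 and Tconv WT 3 together, the last was -0.0559. For 28 selected results on named genes there were 773 values under the alternatives, of which 3 changed sign: Rpl5 in the difference of deletion effects (-0.58 to 0.0532 with 1 library left out, the last without Treg KO 3), Rps2 in Treg KO against Tconv KO (-0.0319 under quantile scaling) and Rps24 in Treg KO against Treg WT (-0.29 to 0.0751 with 1 library left out, the last without Treg KO 2). Signs also changed outside this count. In Treg KO against Tconv KO, Rplp0 ranged from -0.20 to 0.30 and Rpl19 from -0.10 to 0.44 over the settings. In Treg WT against Tconv WT, Rpl19 ranged from -0.15 to 0.06. The ratios to Rps27rt were added after seeing the data. Deviations of same-numbered libraries correlated at -0.0222 to 0.0787, so the numbers were not taken to pair libraries; with the replicate number as a block, 1 gene, Rpl10, was still called in Treg WT against Tconv WT and 0 in the other comparisons, and the median in Treg KO against Treg WT was 0.07 against 0.08 over all genes. Genes near 3 reads, such as Rpl10l and Rps4l, are limited by depth.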
